A study of Mus musculus with 9 samples.

Results

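The branched-chain amino acid breakdown enzymes were followed in neurospheres of adult olfactory bulb stem cells (aOBSCs) that received FGF-2 and EGF at different intervals. The set held 10 genes, chosen by name: Bcat1, Bcat2, Bckdha, Bckdhb, Bckdk, Dbt, Ivd, Mccc1, Mccc2 and Hibadh. They were 10 of 18193 genes with 1 symbol on the array and were read by 18 of 45037 probe sets, a probe set being the group of short oligonucleotides that reads a transcript. None of the 18 carried a second gene symbol.

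Mouse aOBSCs were dissociated from the adult olfactory bulb, grown as floating spheres with both factors at 20 ng/ml every day up to passage 3, and kept for 2 further passages under 1 of 3 regimes. In the Ctr condition the factors were added every day (an interval of 1 day), in C2 every 2 days and in C4 every 4 days. RNA was taken after 7 days in culture, when C2 cells had gone 1 day and C4 cells 3 days without fresh factors, and was hybridised to Affymetrix Mouse Genome arrays, 3 for each condition and 9 in all. The labels name no transgene or deletion in any condition. The study used CD1 or adult C57Bl/6 mice and gave donor ages of 7 and 15 months for this experiment, but the mouse and strain behind each array are not given, nor whether replicate arrays stem from independent cultures, so p-values measure the spread between these arrays only. The arrays read RNA of whole spheres, in which fewer cells of a type and less RNA per cell cannot be told apart.

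The 3 branched-chain amino acids, leucine, isoleucine and valine, are broken down by a shared beginning and separate later routes. A transaminase, BCAT1 in the cytosol or BCAT2 in the mitochondrion, passes the amino group to 2-oxoglutarate, which gives glutamate and a branched-chain keto acid. The mitochondrial branched-chain keto acid dehydrogenase complex then commits the keto acid to oxidation. It is built from BCKDHA and BCKDHB (the E1 subunits), DBT (the E2 core) and a dehydrogenase shared with other complexes, and it is switched off when the kinase BCKDK phosphorylates it. After this step leucine passes through isovaleryl-CoA dehydrogenase (IVD) and the biotin enzyme methylcrotonoyl-CoA carboxylase (MCCC1 and MCCC2), while HIBADH acts in the valine route. In brain these amino acids are a source of amino groups for glutamate, and BCAT1 is known as the transaminase of neurons and of proliferating cells.

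Values are GCRMA values on the log2 scale as the authors deposited them, on which a difference of 1 is a 2-fold change, and they ran between 2.27 and 15.35. A value under 4 was treated as close to the array's floor, since between 34.8% and 35.8% of the probe sets of an array stood at its lowest value. Every difference was tested with limma across all 45037 probe sets, with Benjamini-Hochberg adjustment, and an adjusted p under 0.05 was taken as a call. The probe set with the highest mean over the arrays stands for its gene, and 95% intervals are not adjusted for the number of tests. Levels of different probe sets cannot be set against each other.

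All 9 measured genes of a list of neural stem and progenitor markers lay above the floor, and none of 8 markers of endothelial cells and fibroblasts did. Arrays of a condition correlated with each other at 0.998 or 0.999 over all probe sets. In the comparison of C4 with Ctr 1673 of 18193 genes were called (9.2%), in C2 with Ctr 458 (2.52%) and in C4 with C2 1416 (7.78%). Both comparisons with Ctr rest on the same 3 Ctr arrays, so the calls in one are not independent of the calls in the other.

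On the probe sets of highest mean, the cytosolic transaminase and 5 mitochondrial enzymes moved in opposite directions between C4 and Ctr. Bcat1 fell by 1.71 on the log2 scale in C4, and 5 of the other 9 enzymes rose: Bckdha, Bckdhb, Ivd, Mccc1 and Hibadh, by 0.25 to 0.66. Bcat1 was not called on its second probe set above the floor. Of the 5 rises only that of Bckdhb was called in all 17 alternative settings. The 6 called members of 10 stand beside 9.2% of all genes, the 5 that rose beside 5.65% and the 1 that fell beside 3.55%. The members were chosen with earlier results of these data known, so such shares are a description and no test of the set. Among the 9460 genes above the floor, to which 9 of the 10 members belong, 17.4% were called in C4, 10.7% as higher and 6.73% as lower. At an unadjusted p under 0.05 there were 7 members, beside 21.7% of all genes and 40% of those above the floor. The C4 arrays lay wholly above the Ctr arrays for 6 members (13.8% of all genes) and wholly below them for 1 (8.64%). The median difference of the members was 0.24, beside a median of 0.00 over all genes. Over the 9 members above the floor it was 0.25, beside 0.045 over all genes above the floor.

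**Figure D1:**
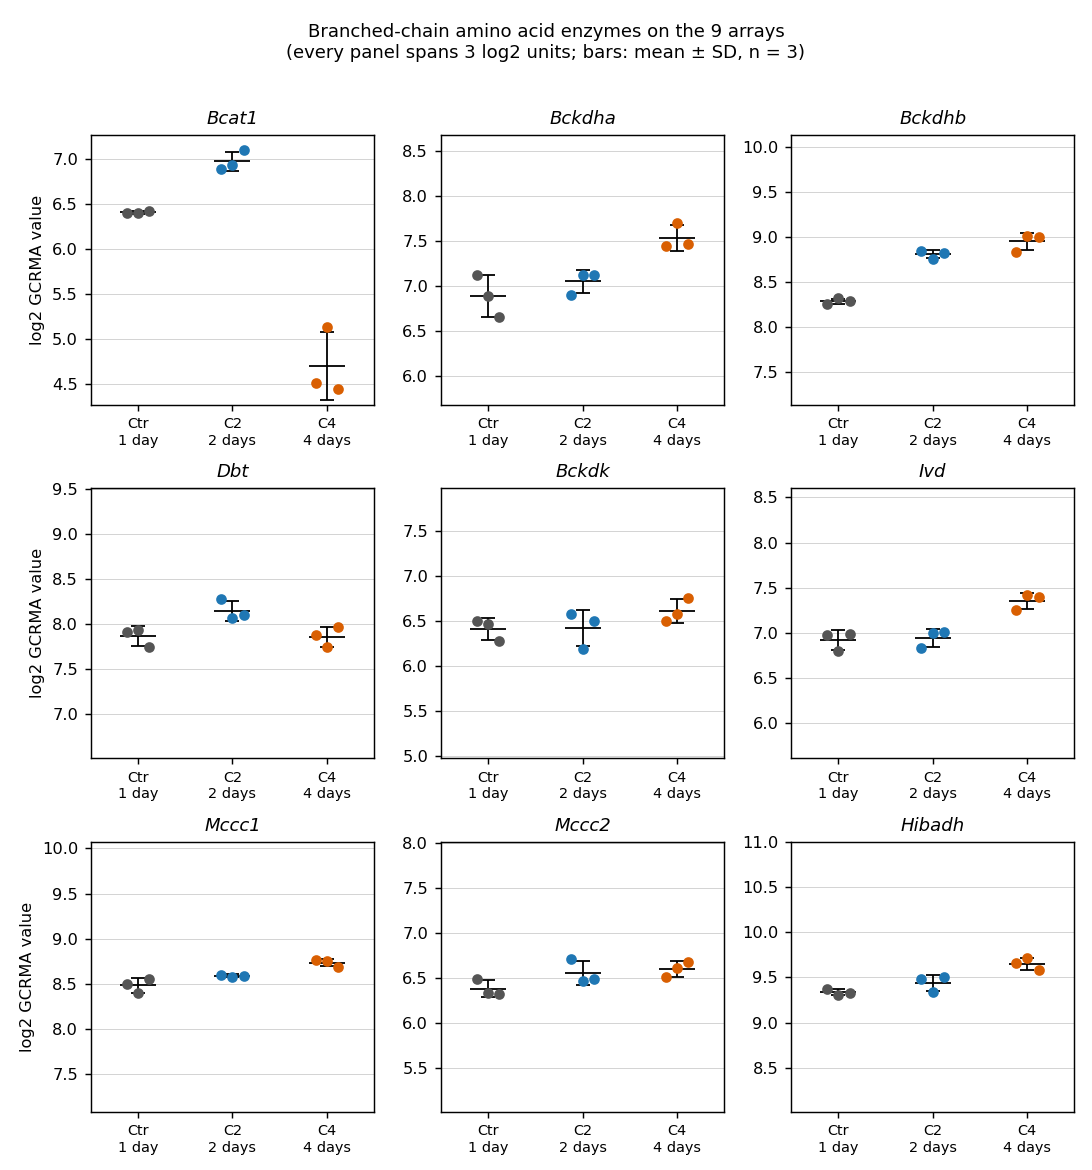
Log2 GCRMA values of the 9 enzymes above the floor in the 9 arrays; points are arrays, bars the mean and SD of 3 arrays, and the x axis gives the interval between additions of FGF-2 and EGF. Bcat1 is lowest in C4 (4.44 to 5.13) and highest in C2 (6.89 to 7.09), whereas the 3 C4 arrays of Bckdha, Bckdhb, Ivd, Mccc1 and Hibadh lie above the 3 Ctr arrays.

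Bcat1 (Entrez 12035), the cytosolic transaminase, had the largest change of the set. Its probe set of highest mean (1450871_a_at) read 6.40, 6.40 and 6.42 in Ctr, 6.89, 6.93 and 7.09 in C2, and 4.51, 5.13 and 4.44 in C4. No C4 array overlapped a Ctr array, and the C2 arrays lay above both. The level averaged 4.70 ± 0.379 in C4 and 6.40 ± 0.0136 in Ctr (SD, n = 3 each), a difference of -1.71 (SE 0.18, interval -2.13 to -1.28, adjusted p = 0.00306), or 3.27-fold lower. Only 63 genes (0.346%) lay at least 1 lower in C4 than in Ctr, and Bcat1 was the single member that differed by so much in either direction. The call held in all 17 alternative settings, among them the 9 fits that each left out 1 array.

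C4 was also 4.84-fold below C2 for Bcat1 (difference -2.27, SE 0.18, adjusted p = 0.00102), with a mean of 6.97 ± 0.109 in C2 (SD, n = 3), again in all 17 settings. Between C2 and Ctr the difference of 0.57 (interval 0.14 to 0.99) did not pass the adjustment (adjusted p = 0.275), although the 3 C2 arrays lay above the 3 Ctr arrays. It passed in a fit without C4 replicate 2 (adjusted p = 0.021), the array with the highest Bcat1 value of its condition. It also passed with only the arrays of C2 and Ctr (adjusted p = 0.0474).

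A second Bcat1 probe set (1430111_a_at) shared the low C4 and high C2 values but placed Ctr elsewhere. It read 4.60, 5.07 and 5.07 in Ctr, 5.67, 5.92 and 6.03 in C2, and 4.60, 4.58 and 4.45 in C4. The C2 arrays stood clear of the rest, while 1 Ctr array was level with the highest C4 array. C4 was 2.52-fold lower than C2 (difference -1.33, adjusted p = 0.00519), a call kept in all 16 settings that could be run. C2 was 1.95-fold higher than Ctr (difference 0.96, adjusted p = 0.0411), a call lost in each of the 9 fits without 1 array (adjusted p 0.0537 to 0.131). C4 against Ctr did not pass (difference -0.37, interval -0.74 to 0.00, adjusted p = 0.315). With the mean over all Bcat1 probe sets in place of the brightest the difference of C4 from Ctr was -0.69 and that from C2 -1.24, both called, and that of C2 from Ctr was called (adjusted p = 0.0201). The third probe set (1455699_at) stood at 2.28 on every array but C2 replicate 1 (2.64).

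**Figure D2:**
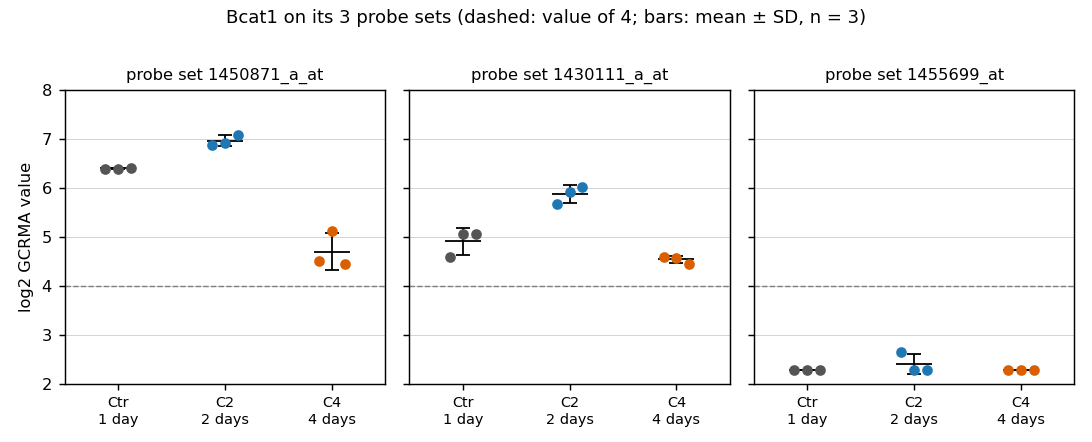
Log2 GCRMA values of the 3 Bcat1 probe sets in the 9 arrays, with the mean and SD of 3 arrays per condition and a dashed line at the value of 4 used as the floor. On probe set 1450871_a_at C4 lies below Ctr, on 1430111_a_at the C2 arrays stand apart from both other conditions, and 1455699_at lies at the floor.

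RefSeq lists a pair of start sites for Bcat1, and the windows before them are shown because its probe sets placed the Ctr arrays differently. The second start lies 27345 bases further into the gene, and the files do not tell which probe set reads which transcript. Both are given in GRCm38.p6 on the minus strand, as the 250 bases before the start, with matches to the searched motifs in capitals.
Bcat1 first start (chr6:145076158-145076407): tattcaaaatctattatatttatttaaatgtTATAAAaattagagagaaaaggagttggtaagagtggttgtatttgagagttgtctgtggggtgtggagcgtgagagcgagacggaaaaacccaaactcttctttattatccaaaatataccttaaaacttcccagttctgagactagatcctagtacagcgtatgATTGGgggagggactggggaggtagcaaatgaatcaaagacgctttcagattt
Bcat1 second start (chr6:145048813-145049062): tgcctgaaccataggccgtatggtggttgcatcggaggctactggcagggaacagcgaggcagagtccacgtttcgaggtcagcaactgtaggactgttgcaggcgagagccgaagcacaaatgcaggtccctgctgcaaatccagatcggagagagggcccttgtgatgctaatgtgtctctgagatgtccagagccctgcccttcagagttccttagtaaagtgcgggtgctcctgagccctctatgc
The first window holds TATAAA 219 bases and CCAAT, as its complement, 53 bases before the start, and the second holds none of the 6 motifs searched.

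The motifs were searched on both strands in windows of 300 bases, 250 before to 50 after each start, which the reference gave for 9 of the 10 members (all but Dbt) in 12 windows. CCAAT was in 8 of the 12 windows, of 7 genes, and in 37.41% of 32851 windows of all genes. GGGCGG was in 3 (35.66% of all), TATAAA in 2 (13.62%) and the E-box CACGTG in 1, that of Mccc2 (7.15%). The amino acid response letters TGATGNAA (3.97% of all) and CCGGAAG (8.86%) were in none. These are matches of letters and say nothing of binding.

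Bcat2 (1425764_a_at, Entrez 12036), the mitochondrial transaminase, read 2.43 to 2.45 on every array and thus gave no measurement above the floor in any condition. Its single probe set cannot show whether the transcript was present at a level below what the array reads.

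Bckdhb (1427153_at, Entrez 12040), the beta chain of E1, was the member raised in both regimes of spaced addition. It read 8.26, 8.31 and 8.28 in Ctr, 8.84, 8.75 and 8.82 in C2, and 8.83, 9.01 and 9.00 in C4. Every C2 and C4 array lay above every Ctr array, and C2 overlapped C4. The gene rose 1.58-fold in C4 (difference 0.66, SE 0.051, adjusted p = 0.000944), a call held in all 17 settings. It rose 1.43-fold in C2 (difference 0.52, SE 0.051, adjusted p = 0.00935), which held in all 9 fits without 1 array and was lost with a robust variance prior (adjusted p = 0.0808). In C2 it was the 1 called member of 10, beside 2.52% of all genes called and 1.67% called as higher, and 112 genes (0.616%) were called as higher in both comparisons with Ctr. C4 and C2 differed by 0.14 (interval 0.02 to 0.27, adjusted p = 0.245), and this passed only in the fit without C4 replicate 1 (adjusted p = 0.0256).

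The window before the first listed start of Bckdhb is shown because this gene rose in both regimes, in GRCm38.p6 on the plus strand. Capitals mark CCAAT (at 76 and 40 bases before this start) and GGGCGG (at 131, 99 and 57), on either strand. The gene record begins at chr9:83925111, inside the window, so the distances hold for this start only. A second start lies 23644 bases further into the gene, and the 250 bases before it hold none of the 6 motifs searched.
Bckdhb first start (chr9:83924887-83925136): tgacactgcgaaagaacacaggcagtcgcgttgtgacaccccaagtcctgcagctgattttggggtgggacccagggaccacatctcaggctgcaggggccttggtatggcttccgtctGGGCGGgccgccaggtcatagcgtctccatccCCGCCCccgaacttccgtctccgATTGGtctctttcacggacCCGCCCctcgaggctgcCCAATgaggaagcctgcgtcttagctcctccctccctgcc

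Bckdha (1416647_at, Entrez 12039), the alpha chain of E1, read 7.13, 6.89 and 6.66 in Ctr, 6.90, 7.13 and 7.13 in C2, and 7.44, 7.70 and 7.47 in C4. The C4 arrays lay above all others, while C2 and Ctr overlapped. The gene rose 1.56-fold in C4 against Ctr (difference 0.65, SE 0.14, adjusted p = 0.0437), close to the threshold. The call was lost without any 1 array other than Ctr replicate 1 (adjusted p 0.0629 to 0.134). C2 differed from Ctr by 0.16 (interval -0.17 to 0.49, adjusted p = 0.759) and C4 from C2 by 0.49 (interval 0.16 to 0.81, adjusted p = 0.132).

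Dbt (1449118_at, Entrez 13171), the E2 core on which the E1 chains sit, was not called in any comparison. It read 7.92, 7.94 and 7.75 in Ctr, 8.28, 8.07 and 8.10 in C2, and 7.88, 7.74 and 7.96 in C4. C4 and Ctr overlapped, and the 3 C2 arrays lay above both. C4 differed from Ctr by -0.01 (interval -0.21 to 0.20, adjusted p = 1), an interval that ends below the rise of either E1 chain. The difference of C2 from Ctr was 0.28 (interval 0.08 to 0.49, adjusted p = 0.255) and that of C4 from C2 -0.29 (interval -0.50 to -0.08, adjusted p = 0.154), neither of which passed. Whether Dbt and the E1 genes differed in their response was not tested as a difference between genes.

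Bckdk (1460644_at, Entrez 12041), the kinase that inactivates the complex, read 6.50, 6.47 and 6.28 in Ctr, 6.58, 6.20 and 6.50 in C2, and 6.50, 6.58 and 6.76 in C4. The conditions overlapped. C4 differed from Ctr by 0.20 (interval -0.09 to 0.49, adjusted p = 0.613) and C2 from Ctr by 0.01 (interval -0.29 to 0.30, adjusted p = 1). Its other probe set (1443813_x_at) stood at 2.27 on all 9 arrays.

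**Figure D3:**
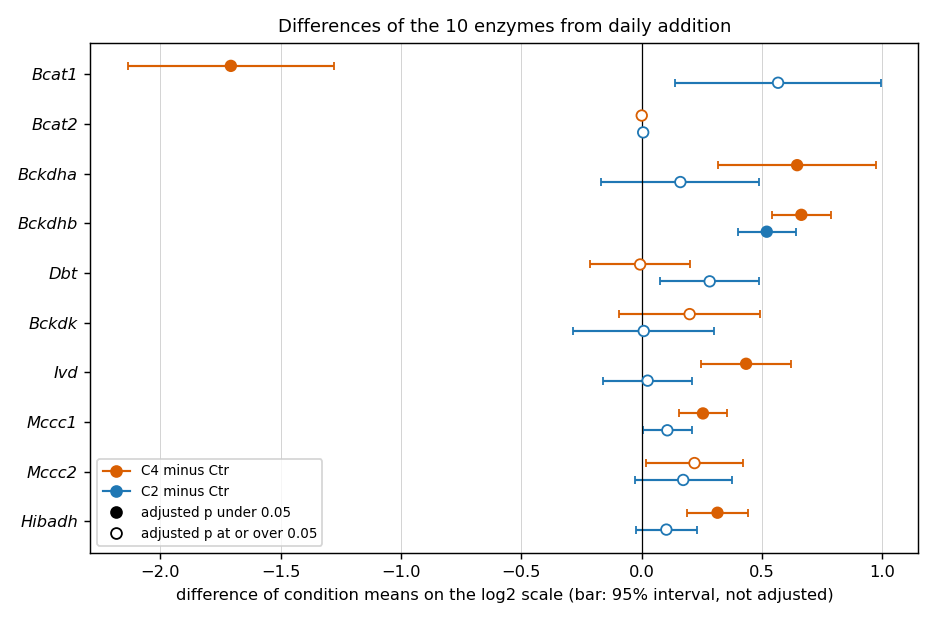
Differences of condition means from Ctr on the log2 scale for the 10 enzymes, C4 above C2 for each gene, with bars for the unadjusted 95% interval; filled points have an adjusted p under 0.05. Bcat1 lies at -1.71 in C4 and 0.57 in C2, Bckdhb is filled in both, and the other called members are filled in C4 only.

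In the leucine route, Ivd (1418238_at, Entrez 56357), which oxidises isovaleryl-CoA, rose in C4 against both other conditions. It read 6.98, 6.79 and 6.98 in Ctr, 6.83, 6.998 and 7.01 in C2, and 7.25, 7.41 and 7.39 in C4. C2 and Ctr overlapped and C4 stood above them. The rise was 1.35-fold against Ctr (difference 0.43, SE 0.078, adjusted p = 0.0238) and 1.33-fold against C2 (difference 0.41, SE 0.078, adjusted p = 0.033), while C2 differed from Ctr by 0.02 (interval -0.16 to 0.21, adjusted p = 1). The call against Ctr was lost without Ctr replicate 1 or 2 or C4 replicate 2 or 3 (adjusted p 0.0575 to 0.0835), and that against C2 without any 1 array other than Ctr replicate 2 and C4 replicate 1 (0.0568 to 0.107). With the mean over both probe sets the difference from C2 was 0.22. The second Ivd probe set (1449001_at) differed by 0.15 between C4 and Ctr (interval -0.05 to 0.34, adjusted p = 0.547).

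Mccc1 (1417227_at, Entrez 72039), the biotin-carrying chain of methylcrotonoyl-CoA carboxylase, read 8.49, 8.39 and 8.55 in Ctr, 8.60, 8.57 and 8.59 in C2, and 8.76, 8.76 and 8.68 in C4. The 3 conditions did not overlap and lay in the order of the interval between additions. The rise in C4 was 1.19-fold against Ctr (difference 0.25, SE 0.042, adjusted p = 0.0178) and was lost without Ctr replicate 1, C4 replicate 1 or C4 replicate 2 (0.0565 to 0.0673). C2 differed from Ctr by 0.11 (interval 0.01 to 0.21, adjusted p = 0.45). On its second probe set (1458208_s_at) C4 differed from Ctr by 0.36 (adjusted p = 0.211) and C2 from Ctr by 0.45 (adjusted p = 0.2).

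Mccc2 (1454840_at, Entrez 78038), the partner chain of Mccc1 in the same carboxylase, read 6.49, 6.33 and 6.32 in Ctr, 6.70, 6.46 and 6.49 in C2, and 6.51, 6.61 and 6.68 in C4. C4 lay just above Ctr, and C2 spanned both. The difference between C4 and Ctr was 0.22 (interval 0.02 to 0.42, adjusted p = 0.269). The other probe sets differed by 0.24 (1432472_a_at, adjusted p = 0.272) and 0.07 (1428021_at, adjusted p = 0.944). With the mean over its probe sets the gene was called (adjusted p = 0.0167).

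In the valine route, Hibadh (1435967_s_at, Entrez 58875), the 3-hydroxyisobutyrate dehydrogenase, read 9.38, 9.30 and 9.33 in Ctr, 9.48, 9.34 and 9.50 in C2, and 9.66, 9.71 and 9.58 in C4. C4 stood above the rest, and C2 overlapped Ctr. It rose 1.24-fold in C4 against Ctr (difference 0.31, SE 0.053, adjusted p = 0.0188), a call lost without Ctr replicate 2 or 3 or C4 replicate 1 or 2 (0.058 to 0.0757). The second probe set (1423780_at) rose 1.27-fold in the same comparison (difference 0.35, adjusted p = 0.0184), lost without Ctr replicate 2 or 3 (0.0646 to 0.073). C2 differed from Ctr by 0.10 (interval -0.03 to 0.23, adjusted p = 0.677) on the first and by 0.23 (interval 0.09 to 0.37, adjusted p = 0.153) on the second.

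Across the set, C2 against Ctr gave 1 call (4 members at an unadjusted p under 0.05, beside 14.1% of all genes and 26.2% of those above the floor) and a median difference of 0.13, with the arrays of 4 members wholly higher in C2 (10.4% of all genes) and of none wholly lower (6.35%). C4 against C2 gave 2 calls, Ivd as higher and Bcat1 as lower, beside 7.78% of all genes, 4.29% as higher and 3.49% as lower, and 7 members at an unadjusted p under 0.05, beside 19.6% of all genes and 36.3% of those above the floor. The C4 arrays of 4 members lay wholly above those of C2 (11.3% of all genes) and of 2 wholly below (9.53%). Of the 10 enzymes, 5 thus differed from Ctr with a call in C4 but not in C2; for Ivd and Bcat1 the difference between C4 and C2 itself was called, for Bckdha, Mccc1 and Hibadh it was not (adjusted p 0.132, 0.137 and 0.0888).

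Other genes of the pathway came from lists of the later steps, carriers, electron transfer, glutamate exchange and regulators. Of 15 genes of later and accessory steps 14 were measured, all above the floor, and 3 rose in C4 against Ctr and none fell, beside 10.7% of genes above the floor called as higher and 17.4% called in either direction. An unadjusted p under 0.05 was reached by 10 of the 14, among them Dld with a negative difference (-0.19), and by 40% of genes above the floor. The median difference of this list was 0.19, beside 0.00 over all genes and 0.045 over those above the floor. The 3 that rose were Auh, which hydrates methylglutaconyl-CoA in the leucine route (difference 0.43, adjusted p = 0.0102), Pcca, the biotin chain of propionyl-CoA carboxylase at the end of the isoleucine and valine routes (0.45, adjusted p = 0.0294), and Acat1, the mitochondrial thiolase of isoleucine and ketone breakdown (0.17, adjusted p = 0.0274). The Auh call held in all 9 fits without 1 array and was lost with a robust variance prior (adjusted p = 0.0673). Pcca lost it without any 1 Ctr array, C2 replicate 2, C4 replicate 1 or C4 replicate 3 (0.0546 to 0.101) and Acat1 without any 1 Ctr array, C2 replicate 1, C4 replicate 1 or C4 replicate 2 (0.0508 to 0.0954). With the mean over all probe sets of a gene, some of which lay at the floor, the rise in C4 was 0.07 for Auh and 0.22 for Pcca, both called. In C2 none of the 14 was called (5 at an unadjusted p under 0.05, beside 26.2% of genes above the floor). Against C2 only Acat1 was called in C4 (0.18, adjusted p = 0.0232), a call lost without Ctr replicate 2, any 1 C2 array, C4 replicate 1 or C4 replicate 2 (0.0519 to 0.074).

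Of 6 carriers 4 lay above the floor, and the pair that forms the large neutral amino acid exchanger of the plasma membrane fell in C4 and rose in C2. Slc7a5, its transport chain, read 9.36, 9.31 and 9.24 in Ctr, 10.09, 10.04 and 10.14 in C2, and 8.12, 8.13 and 8.39 in C4. Slc3a2, its heavy chain, read 11.09, 11.02 and 11.03 in Ctr, 11.64, 11.65 and 11.69 in C2, and 10.36, 10.41 and 10.40 in C4. For both genes the 3 conditions did not overlap, with C4 lowest and C2 highest. Slc7a5 fell by 1.09 in C4 (2.12-fold lower, SE 0.077, adjusted p = 0.000773) and rose by 0.79 in C2 (1.73-fold, SE 0.077, adjusted p = 0.00944). Slc3a2 fell by 0.66 in C4 (1.58-fold lower, SE 0.023, adjusted p = 8.34e-05) and rose by 0.61 in C2 (1.53-fold, SE 0.023, adjusted p = 0.000559). All 4 calls held in each fit without 1 array (that of Slc7a5 in C2 was lost in 2 of the 8 other settings, at an adjusted p up to 0.0615), and 58 genes (0.319%) fell in C4 and rose in C2 with a call in both. The difference between C4 and C2 was -1.87 for Slc7a5 (adjusted p = 8.15e-05) and -1.27 for Slc3a2 (adjusted p = 4.77e-06). Slc43a2 and the mitochondrial carrier Slc25a44 differed by 0.19 and 0.02 between C4 and Ctr (adjusted p 0.661 and 1).

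**Figure D4:**
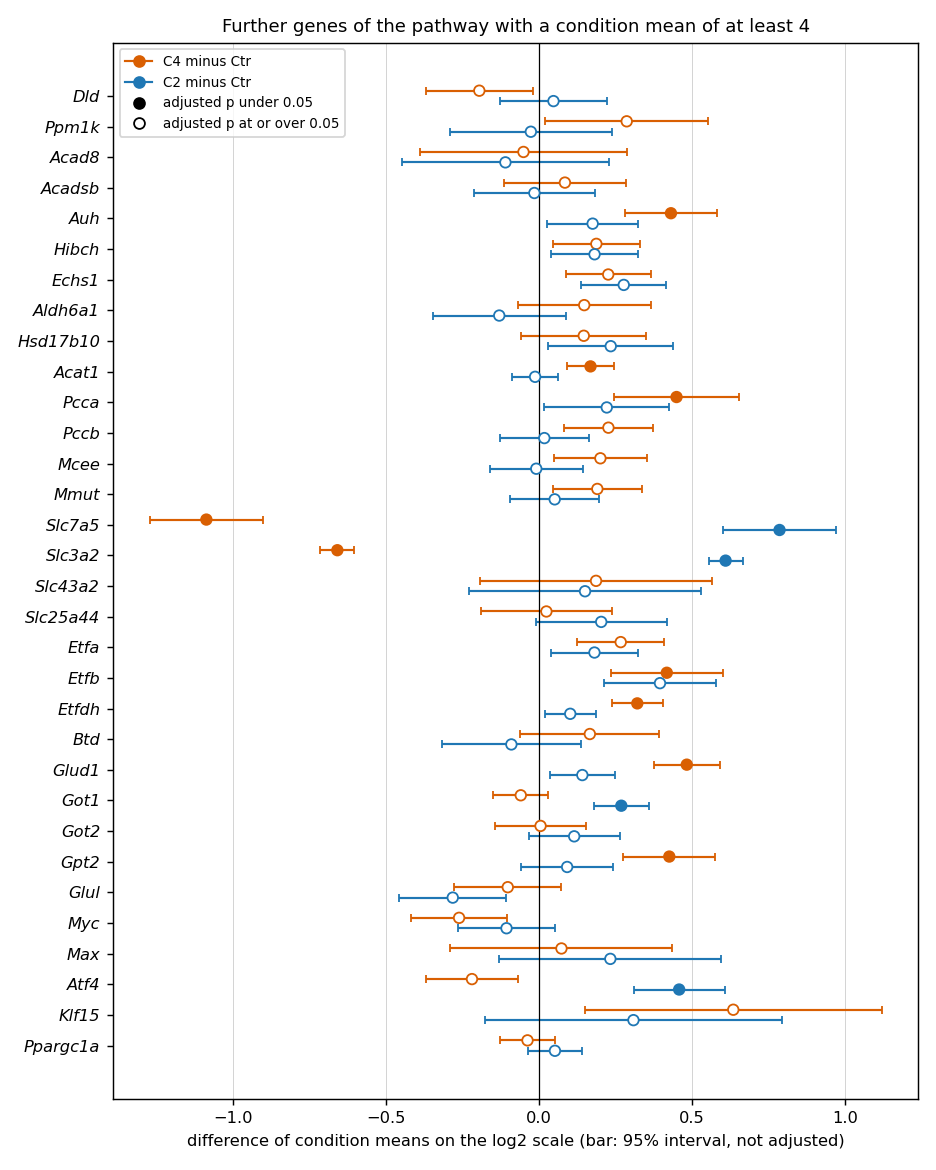
Differences of condition means from Ctr on the log2 scale for the further pathway genes with a condition mean of at least 4, C4 above C2 for each gene, with bars for the unadjusted 95% interval; filled points have an adjusted p under 0.05. Slc7a5 (-1.09 in C4, 0.79 in C2) and Slc3a2 (-0.66 in C4, 0.61 in C2) lie on opposite sides of 0 in the pair of comparisons, and Auh, Acat1, Pcca, Etfb, Etfdh, Glud1 and Gpt2 are filled to the right in C4.

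Among 5 genes of electron transfer and biotin handling, 4 lay above the floor and 2 rose in C4, beside 5.65% of all genes and 10.7% of those above the floor. Etfdh, which hands electrons of IVD and related dehydrogenases to the respiratory chain, rose by 0.32 (1.25-fold, adjusted p = 0.00342) in all 17 settings, by 0.16 with the mean over its probe sets, 1 of which lay at the floor. Etfb, a chain of the electron transfer flavoprotein, rose by 0.42 (adjusted p = 0.0252), lost without any 1 Ctr array, C2 replicate 1, C4 replicate 2 or C4 replicate 3 (0.0503 to 0.0892). In C2 none of the 5 was called (3 at an unadjusted p under 0.05, beside 14.1% of all genes), and against C2 Etfdh rose in C4 by 0.22 (adjusted p = 0.016, lost without any 1 C2 array or C4 replicate 3, at 0.0557 to 0.0627).

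Of 7 genes that make or use the glutamate of transamination 6 were measured, and 2 rose in C4, beside 5.65% of all genes and 10.7% of those above the floor. Glud1, glutamate dehydrogenase, rose 1.40-fold (difference 0.48, adjusted p = 0.00194) and Gpt2, the mitochondrial alanine transaminase, 1.34-fold (difference 0.43, adjusted p = 0.0113), both in every fit without 1 array, and Gpt2 in 7 of the 8 other settings (adjusted p up to 0.0588). In C2 the cytosolic aspartate transaminase Got1 rose by 0.27 (adjusted p = 0.0253), lost without Ctr replicate 2 or 3, any 1 C2 array, C4 replicate 1 or C4 replicate 3 (0.0526 to 0.0709). C4 against C2 was higher for Glud1 (0.34, adjusted p = 0.00797) and Gpt2 (0.33, adjusted p = 0.0321) and lower for Got1 (-0.33, adjusted p = 0.00466), of which Gpt2 kept its call only without C4 replicate 2 among the fits without 1 array (0.0552 to 0.0956 in the other 8).

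Of 6 transcription factors linked to these enzymes 5 lay above the floor, and none was called in C4 against Ctr (limma). An unadjusted p under 0.05 was reached by 3, beside 21.7% of all genes and 40% of those above the floor. Atf4, the factor of the amino acid response, averaged 10.83 ± 0.0771 on the Ctr arrays, 11.29 ± 0.0759 on the C2 arrays and 10.62 ± 0.0848 on the C4 arrays (SD, n = 3 each). It rose by 0.46 in C2 against Ctr (adjusted p = 0.0243, lost without any 1 Ctr or C2 array at 0.0559 to 0.0748; the probe sets averaged gave 0.04, adjusted p = 0.876), differed by -0.68 between C4 and C2 (adjusted p = 0.00194, all 17 settings), and differed by -0.22 between C4 and Ctr (adjusted p = 0.117). Of its other probe sets, the brighter fell by 1.00 in C4 against Ctr (adjusted p = 0.00959) and differed by -0.09 in C2, and the other, near the floor, differed by -0.21 in C4 (adjusted p = 0.513) and by -0.25 in C2 (adjusted p = 0.564). Myc, known to drive Bcat1 in tumour cells, differed by -0.26 in C4 (adjusted p = 0.08) and Klf15, known in muscle as an activator of these enzymes, by 0.64 (adjusted p = 0.165). In C2 Myc differed from Ctr by -0.11 and Klf15 by 0.31 (limma adjusted p = 0.735 for each). Max and Ppargc1a differed by 0.07 and -0.04 in C4 against Ctr, neither called. The part of these factors in the differences of the enzymes was not tested.

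The genes whose values ran most like those of Bcat1 over the 9 arrays were Itga4 (Pearson r = 0.993), Eprs (0.987), Mthfd2 (0.981), Ifitm3 (0.98) and Kctd15 (0.978), among 782 genes with a range of at least 1. The most unlike were Dll3 (-0.986), Cyp2j6 (-0.983) and Ppp2r2b (-0.982). The 9 points fall into 3 conditions, so these values describe a shared order of the condition means and carry no test. Mthfd2, for example, averaged 9.64 in Ctr, 10.30 in C2 and 8.57 in C4, and Dll3 5.92 in Ctr, 5.37 in C2 and 7.23 in C4.

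Markers of several cell types also differed between C4 and Ctr, in both directions. Among genes above the floor 10.7% were called as higher in C4 and 6.73% as lower, and among all genes 5.65% and 3.55%. Of the 9 neural stem and progenitor genes 4 rose in C4 against Ctr (Egfr, Fabp7, Pax6 and Hes1) and Vim fell, with sums, as log2 of the summed linear values, of 16.01 to 16.10 in C4 and 16.01 to 16.11 in Ctr. Of 7 oligodendrocyte lineage genes measured, 4 lay above the floor and all 4 rose in C4 against Ctr (Pdgfra, Cspg4, Gpr17 and Cnp), with Mbp, Mog and Sox10 near the floor; the sums were 11.49 to 11.61 in C4 and 10.95 to 11.08 in Ctr. Of 7 astrocyte genes 6 lay above the floor, with Gfap near the floor, and 3 rose (Aldh1l1, S100b and Aqp4). The sums of this list were 13.55 to 13.60 in C4 and 13.21 to 13.40 in Ctr. Of 8 microglia and macrophage genes only Cd68 lay above the floor, and it fell; the sums were 6.23 to 6.35 in C4 and 7.94 to 8.21 in Ctr. Of 8 neuronal genes 2 lay above the floor, of which Gad1 fell, with sums of 12.43 to 12.61 in C4 and 12.50 to 12.51 in Ctr. In C2 the sums of stem and progenitor genes (15.94 to 15.99), the oligodendrocyte lineage (10.70 to 10.76) and neurons (12.35 to 12.45) lay wholly below the same Ctr ranges. A sum follows the brightest genes of its list. None of the 9 stem and progenitor genes was called in C2 against Ctr. Their C2 arrays lay wholly above Ctr for 4 and wholly below for 3, beside 10.4% and 6.35% of all genes. No neuronal gene was called either. Of the 7 oligodendrocyte lineage genes 2 fell (Gpr17 and Cnp), beside 2.52% of all genes called. The sums of astrocytes (13.25 to 13.40) and microglia (7.95 to 8.01) overlapped Ctr. Within the astrocyte list Aldh1l1 fell in C2 against Ctr (difference -0.76, limma adjusted p = 0.0107), the 1 called gene of 7. The C2 arrays of 2 astrocyte genes, among them S100b, lay wholly above Ctr. Those of 2, Aldh1l1 and Aqp4, lay wholly below. The part of these markers in the differences of the enzymes was not tested.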

How the data were processed

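The log2 values were deposited by the authors after GCRMA, which corrects background by probe sequence, normalises arrays by quantiles and summarises each probe set; its version is not given in the sources used here. The table held 45101 probe sets, from which 64 array controls were removed. Gene symbols came from the platform annotation (34945 probe sets with 1 symbol, 932 with several, 9160 with none), and 34741 matched RefSeq by Entrez number. The arrays give no count of depth, and their number limits the precision.

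Conditions were compared with limma 3.58.1 in R 4.3.3 (1 mean per condition over all 9 arrays, variance prior following the intensity trend, 6 residual degrees of freedom). The scripts were tested on simulated data. The members and lists were chosen with earlier results of these data known. The text names all members and, from each further list, up to 4 genes called in any comparison, by smallest p in C4. Slc43a2, Slc25a44, Myc, Klf15, Max, Ppargc1a and the marker genes were named after their values were seen. Alternatives were a filter on dim probe sets, variance priors without trend or robust, only the arrays compared, a replicate block, median centring, the mean over the probe sets of a gene, no cross-hybridising probe sets, and leaving out each array. The same alternatives on further pathway genes and on other member probe sets were added after seeing the data. Sequences came from RefSeq windows of GRCm38.p6. Some listed genes are not reported here.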

Additional observations from a re-analysis of the deposited data

How the results depend on the processing

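The direction of every called member difference was the same under all alternatives. Of the members, 6 were called in C4 against Ctr, against 2 with a robust variance prior, 3 with only the arrays of the conditions compared and 2 with the replicate block, and 2 to 5 without 1 array (2 without C4 replicate 2, 3 without Ctr replicate 2 or C4 replicate 1). In C2 against Ctr the count was 1, against 0 with the robust prior, 0 with the block, 2 with only the arrays compared, 2 with the mean over probe sets and 1 to 2 without 1 array. In C4 against C2 it was 2, against 5 with dim probe sets filtered out, 1 with the robust prior, 1 with only the arrays compared, 1 with the block and 1 to 3 without 1 array. Over all probe sets, C4 against Ctr gave 2833 calls, against 4697 with the filter, 1386 with the robust prior, 1618 with only the arrays compared and 1818 without Ctr replicate 2. In C2 against Ctr there were 767, against 1825 with the filter, 45 with the robust prior, 371 with only the arrays compared, 237 with the block and 323 without C2 replicate 3. In C4 against C2 there were 2363, against 3908 with the filter, 1178 with the robust prior, 1404 with only the arrays compared and 1485 without C2 replicate 2. The filter adjusts over fewer probe sets, the robust prior and block change the estimate of the spread, and fewer arrays leave fewer degrees of freedom; the cause of each lost call was not tested. Of the 8 alternatives that kept all arrays of a comparison, the call in C4 against Ctr held in 4 for Bckdha, 5 for Ivd, 4 for Mccc1 and 6 for Hibadh.

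The replicate numbers did not pair the arrays: over 9 pairs of same-numbered arrays, deviations from the condition means correlated at -0.045 to 0.121, and 2 of 9 arrays correlated best with their own number in both other conditions. With the number as a block, Bcat1 and Bckdhb in C4 against Ctr kept their calls, and Bckdhb in C2 against Ctr lost its call (adjusted p = 0.0529), as did, among further genes, Slc7a5 in C2 against Ctr and Gpt2 in C4 against Ctr. Centring moved arrays by -0.05 to 0.05 on the log2 scale. Member differences that changed sign passed in neither fit and were at most 0.0688 in size. Depth cannot be counted on arrays; Bcat2 and the probe sets near the floor give no measure of change.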
